A study of Homo sapiens with 2 samples.

Results

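The genes described here are 30 genes of the PIWI-interacting RNA (piRNA) pathway, the germline pathway in which Maelstrom (MAEL) works. They were chosen by name from what is known of the pathway, at a time when earlier results of these data were known. All 30 were among the 58735 genes of the deposited count table. RNA sequencing was done on PLC8024 cells, also listed as Alexander cells, an epithelial line from a human hepatocellular carcinoma (HCC). The study compared 1 library of non-treated wild-type cells (MAEL WT) with 1 library of cells in which MAEL had been knocked out with an sgRNA (MAEL KO). According to the study's methods, sorted cells transfected with a plasmid carrying sgRNA and Cas9 were seeded to grow single clones, so the knockout cells may descend from a single cell, and loss of the protein was checked by Western blot. The comparison addresses which genes of the pathway are transcribed in these cells and how their levels differ between the libraries. No difference has a replicate check, since there was 1 library per condition, and a difference between cultures or between cloned and uncloned cells cannot be told apart from the knockout.

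In germ cells, piRNAs are short RNAs carried by PIWI proteins, which use them to find and silence transposons. Long precursor transcripts are cut at the surface of mitochondria, trimmed and methylated at their ends, and loaded onto PIWI proteins. Much of this happens in nuage, a granule near the nucleus built on Tudor domain proteins, which bind methylated arginines of their partners. MAEL is a protein of nuage and of the nucleus with an HMG domain, and most members are known for expression in the testis. Liver cells are not known to make piRNAs as germ cells do.

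The libraries held 19904136 counts for MAEL WT and 20833332 for MAEL KO. A level at or under 3 counts is treated as under the floor, since 3 counts is the limit that a count of 0 allows, and intervals cover counting error only. Levels of different genes are compared as FPKM, the deposited value, scaled to exon length and library size. All 10 hepatocyte markers were above the floor in both libraries, with a summed FPKM of 1685 in MAEL WT and 4890 in MAEL KO. SERPINA1, FGB and APOB had the highest FPKM in both. Of the 10, 9 were higher in MAEL KO, 3 of them by more than 2 on the log2 scale, and FOXA2 was lower at -0.46. The 3 were ALB, APOA1 and TTR. ALB had 59 counts in MAEL WT and 8550 in MAEL KO, at 7.36. ALB and TTR lay at 0.799 and 0.382 FPKM in MAEL WT, and at 134 and 3.41 FPKM in MAEL KO. Of 9 markers of blood, endothelial, stromal and ductal cells, 6 were above the floor in at least 1 library, with a summed FPKM of 3.33 and 2.91, and none was at 0 in both. Of the 5 of these with enough counts for a fold change, EPCAM, KRT19, COL1A1 and DES were lower in MAEL KO by more than 2 on the log2 scale, and their part in the results below was not tested. Their counts in MAEL WT and MAEL KO were low, at 15 and 0, 13 and 1, 92 and 11, and 14 and 2, respectively. Each counting interval lay below 0 but reached to a difference smaller than 2, with upper ends of -1.63, -0.76, -1.95 and -0.47. PECAM1, an endothelial marker and the highest of the 9, was the exception with 348 counts in MAEL WT and 392 in MAEL KO, at 0.38 (95% counting interval 0.17 to 0.59). It made up 2.05 FPKM of the sum in MAEL WT and 2.66 FPKM of the sum in MAEL KO. PTPRC and VWF had 3 and 1 counts in MAEL WT and 0 in MAEL KO. In bulk RNA, fewer cells with a transcript and less transcript per cell cannot be told apart.

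MAEL itself, on chromosome 1 of GRCh38 from 166975582 to 167022214, had 1 count in MAEL WT and 0 in MAEL KO. Both libraries were under the floor, which for this gene lies at 0.0436 FPKM in MAEL WT and 0.0503 FPKM in MAEL KO. The count therefore could not check the label of either library, and a small insertion or deletion would not by itself remove the RNA. The study described PLC8024 as its line with the highest MAEL level, with Western blots of protein across its cell lines. It also checked the knockout with a mismatch assay of the DNA. Protein on a blot and RNA counts are unlike measures, and the difference between them was not tested. The gene starts 99 bp from ILDR2, which is read in the other direction and had 1 count in MAEL WT and 7 in MAEL KO. The strip between both genes is shown because it lies upstream of the targeted gene and both sides had few counts. It was read from RefSeq (GRCh38.p14, plus strand, chr1:166975483-166975581), and it holds 20 CpG in 99 bases.
MAEL upstream strip: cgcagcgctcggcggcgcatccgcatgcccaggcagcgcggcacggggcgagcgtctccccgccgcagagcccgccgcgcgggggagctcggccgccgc

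Of the 30 members, 22 (73.3%) had more than 3 counts in at least 1 library. The share was 37.4% of all genes and 74.3% of protein-coding genes, so the members' share lay near that of protein-coding genes. Most of the members above the floor were at low levels. An FPKM of at least 1 in at least 1 library was found for 10 members (33.3%), against 56.6% of protein-coding genes. Those 10 were GTSF1, HENMT1, MOV10, TDRKH, PLD6, TDRD12, TDRD7, RNF17, MYBL1 and TDRD3. Of the 8 members at or under the floor in both libraries, PIWIL1, TDRD1 and TDRD5 had 0 counts in both. The other 5 were MAEL, PIWIL3, ASZ1, PNLDC1 and FKBP6, each with 1 to 3 counts in MAEL WT and 0 in MAEL KO. For 5 members, among them MOV10L1 and DDX4, only the MAEL WT library was above the floor, and for 0 members only the MAEL KO library was. Over protein-coding genes, 4.65% were above the floor in MAEL WT only and 1.66% in MAEL KO only.

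**Figure D1:**
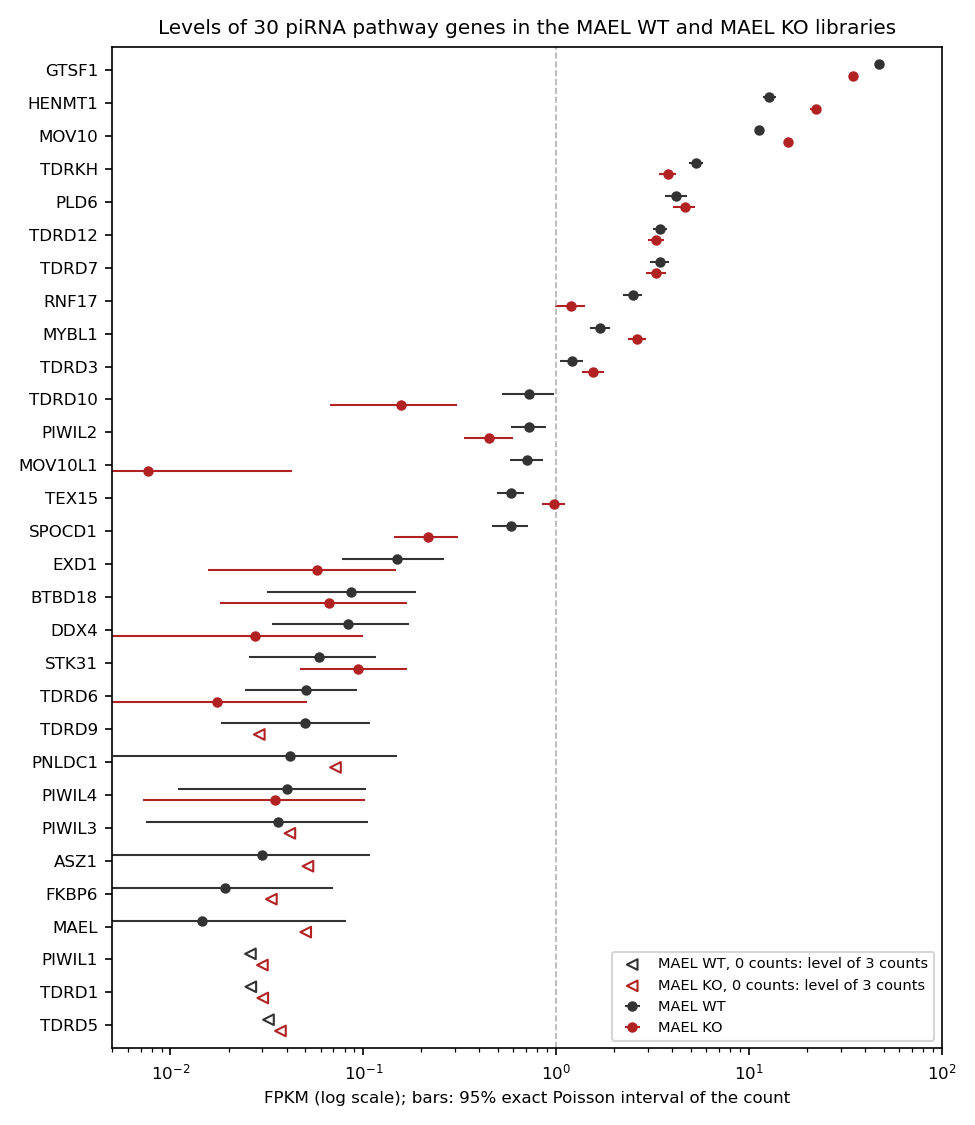
FPKM on a log axis for the 30 members in the MAEL WT (black) and MAEL KO (red) libraries, with 95% exact Poisson intervals of the count as bars, cut at the left edge where they reach lower, and open triangles at the level of 3 counts where a gene had 0. The 10 members with an FPKM of at least 1 (dashed line) lie in the upper right, GTSF1 is highest in both libraries, and MOV10L1 shows the widest gap between the libraries.

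GTSF1, a small zinc finger protein that assists PIWI proteins in cutting their targets, was the highest member. It had 2600 counts in MAEL WT and 1654 in MAEL KO, or 47.1 FPKM (95% exact Poisson interval 45.3 to 48.9) and 34.6 FPKM (32.9 to 36.3). That placed it above 96.3% of protein-coding genes in MAEL WT and above 93.2% in MAEL KO. GTSF1 alone made up 48.6% of the summed FPKM of all members in MAEL WT and 36.4% in MAEL KO. Its log2 fold change in MAEL KO was -0.44 (95% counting interval -0.53 to -0.35). The 2524 bp of its exons share no base with exons of other genes, and the antisense gene AC079313.1, which overlaps its span, had 11 and 5 counts.

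HENMT1 and MOV10 followed GTSF1 in both libraries. HENMT1 is the methyltransferase that protects the 3′ end of piRNAs, and it had 677 counts in MAEL WT and 1019 in MAEL KO, or 12.8 and 22.2 FPKM. MOV10 is an RNA helicase of somatic cells that restrains retrotransposons and viruses, and it had 1613 and 1959 counts, or 11.3 and 15.9 FPKM. The Poisson intervals of these genes overlapped in MAEL WT and did not overlap in MAEL KO, where HENMT1 was higher. With GTSF1, these 3 genes held 73.4% of the members' summed FPKM in MAEL WT and 76.4% in MAEL KO.

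The next members lay between 1 and 6 FPKM in both libraries. In MAEL WT the order was TDRKH at 5.33, PLD6 at 4.18, TDRD12 at 3.47, TDRD7 at 3.45, RNF17 at 2.51, MYBL1 at 1.69 and TDRD3 at 1.21 FPKM. Counting intervals of neighbours in this order overlapped for PLD6 with TDRD12 and for TDRD12 with TDRD7, and not for the other pairs. Below them, TDRD10, PIWIL2, MOV10L1, TEX15 and SPOCD1 lay between 0.581 and 0.727 FPKM in MAEL WT, with overlapping intervals from each to the next. The other members were at or under 0.15 FPKM in that library, where no neighbouring levels could be told apart. In MAEL KO, PLD6 was above TDRKH and MYBL1 above TDRD3 and RNF17, and the intervals of PLD6 and TDRKH overlapped.

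The promoters of 24 of the 30 members were found in the RefSeq table of promoter sequences. To ask whether the members that were read differ in sequence from those that were not, CpG content was described. It was taken over the 250 bases before each RefSeq start. That start lies 28868 bp inside the deposited gene for DDX4, 1298 bp for MOV10, 882 bp for TDRKH and 630 bp for ASZ1. For these genes the bases are not those before the deposited start, yet they were kept in the medians and matches below. The ratio of observed to expected CpG had a median of 0.75 for 17 members above the floor and 0.78 for 7 members at or under it. The median over 21021 promoters of protein-coding genes was 0.72. GTSF1, the highest member, was near the lower end with 8 CpG and a ratio of 0.33, whereas MAEL had 51 CpG and a ratio of 1.12. MYBL1 encodes A-MYB, which activates pathway genes in the testis, so the letters AACNG, the core of the MYB motif, were searched on both strands. They stood in 15 of the 24 promoters (62.5%), against 70.6% of all 35116 promoters and 68.8% of those of protein-coding genes. By level, they stood in 11 of 17 members above the floor (64.7%) and in 4 of 7 at or under it (57.1%). Among members with an FPKM of at least 1 they stood in 7 of 8, and for PLD6 and MYBL1 at that level no promoter was found. A match of 5 letters is a description and not a binding site.

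The sequences upstream of GTSF1 and TDRD12 are shown as those of a well-read member and of a member with a testis-known role that was read at 3 FPKM. They come from RefSeq on GRCh38.p14, at chr12:54473603-54473852 on the minus strand for GTSF1 and chr19:32719517-32719752 on the plus strand for TDRD12. Capitals mark the letters AACNG or, for the other strand, CNGTT, of which GTSF1 has 2 and TDRD12 has 3. The TDRD12 run ends at the start of the gene in the deposited table.
GTSF1: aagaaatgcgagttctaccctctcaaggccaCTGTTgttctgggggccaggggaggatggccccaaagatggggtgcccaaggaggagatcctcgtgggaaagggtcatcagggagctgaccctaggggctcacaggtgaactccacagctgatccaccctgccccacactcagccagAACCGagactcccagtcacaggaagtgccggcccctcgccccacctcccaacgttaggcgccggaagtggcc
TDRD12: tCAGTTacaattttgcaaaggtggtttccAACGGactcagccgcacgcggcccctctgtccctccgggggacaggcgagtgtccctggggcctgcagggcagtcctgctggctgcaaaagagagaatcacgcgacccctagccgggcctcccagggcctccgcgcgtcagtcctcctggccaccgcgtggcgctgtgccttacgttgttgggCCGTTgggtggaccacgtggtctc

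Between the libraries, 2 members were lower in MAEL KO by more than 2 on the log2 scale, MOV10L1 and TDRD10, and 0 were higher by as much. The fold change was computed from counts scaled by TMM factors with 1 added, for every gene that reached 10 counts in either library, which held for 18 members and 17887 genes. Over those genes, 5.64% were lower and 2.16% higher by more than 2. At a threshold of 1, 6 of the 18 members (33.3%) were lower and 0 higher, against 16.5% lower and 10.2% higher over all genes tested. Of these 6, EXD1 with 12 and 4 counts and TDRD6 with 10 and 3 had counting intervals that held 0. With 5 added, EXD1 and TDRD6 were both at -0.80. The median over the 18 members was -0.26 (95% binomial interval of the median -1.20 to 0.49), beside -0.04 over all genes tested. For 6 of the 18 members (33.3%) the counting interval held 0, and for all genes tested this share was 30.5%. Of the others, 5 lay above 0 and 7 below, against 34.8% above and 34.7% below over all genes tested. When libraries were scaled by their total counts alone, 4 lay above 0 and 9 below, with TDRD3, TDRD7 and TDRD12 on another side.

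**Figure D2:**
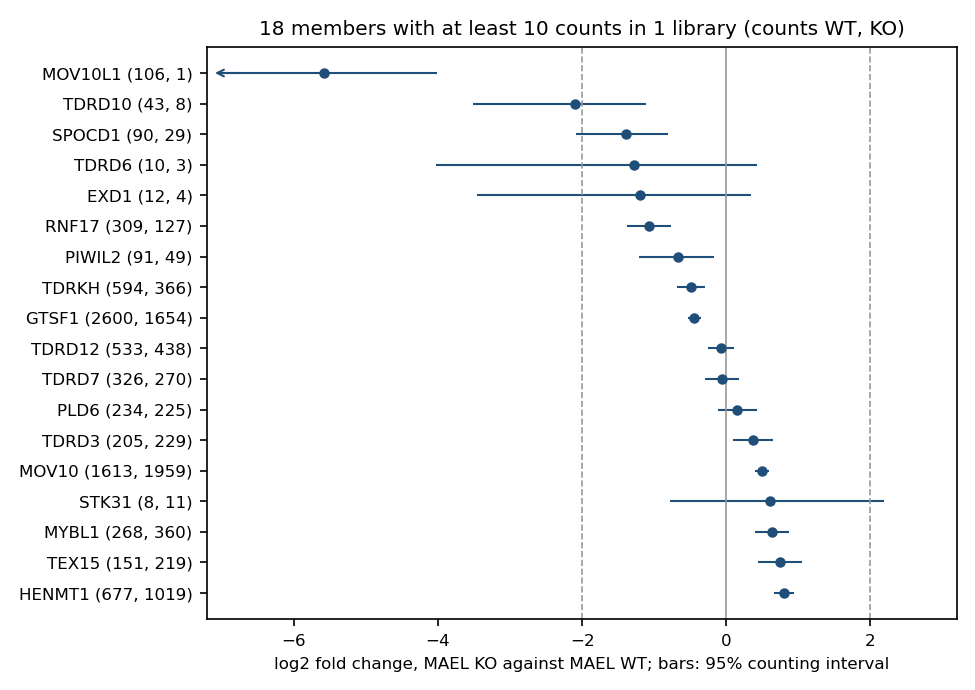
MAEL KO relative to MAEL WT, as log2 fold change, for the 18 members that reached 10 counts, with counts in brackets, 95% exact Clopper-Pearson counting intervals as bars and dashed lines at the threshold of 2 in each direction. MOV10L1, whose interval runs past the left edge to -11.8, stands apart at -5.59, TDRD10 lies just past the threshold, and the others lie between -1.40 and 0.80.

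Among the PIWI proteins, PIWIL2 was the one above 0.1 FPKM. PIWIL2, which carries piRNAs in fetal and adult germ cells of the testis, had 91 counts in MAEL WT and 49 in MAEL KO, a log2 fold change of -0.67 (95% counting interval -1.21 to -0.17). Its level was 0.723 FPKM in MAEL WT and 0.449 FPKM in MAEL KO. PIWIL4, the nuclear PIWI protein, had 4 and 3 counts, and 15.0% of its exon bases are shared with other genes. FUT4, which overlaps it on the same strand, had 61 and 125. PIWIL3 had 3 and 0 counts. PIWIL1, the PIWI protein of meiotic cells, had 0 in both libraries, which allows up to 0.026 FPKM in MAEL WT and 0.030 FPKM in MAEL KO.

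The Argonaute proteins AGO1 to AGO4, the relatives of PIWI proteins that carry microRNAs in all tissues, summed to 21.3 FPKM in MAEL WT and 19.5 FPKM in MAEL KO. The 4 PIWI genes summed to 0.80 and 0.484 FPKM, so that Argonaute transcripts were 26.6 and 40.3 times as high. AGO1 had a log2 fold change of 0.11, AGO2 of 0.02, AGO3 of -0.52 and AGO4 of -0.70. All 14 genes of the somatic small RNA machinery were above the floor, with a median log2 fold change of 0.36 and none past 2.

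Of the proteins of nuage and its helicases, MOV10L1 showed the largest difference. MOV10L1, the helicase that binds piRNA precursors and feeds them to the cutting enzyme, had 106 counts in MAEL WT and 1 in MAEL KO. This is 0.705 FPKM (95% exact Poisson interval 0.577 to 0.853) against 0.00768 FPKM (0.000194 to 0.0428). The ratio without an added count was 91.6 times lower in MAEL KO, with a 95% counting interval of 16.1 to 3652 times. None of its 6872 exon bases is shared with another gene. The genes to either side, MLC1 and PANX2, had 0 counts in both libraries and 392 and 190 counts, respectively. Its somatic relative MOV10 was higher in MAEL KO, with a log2 fold change of 0.49 (95% counting interval 0.39 to 0.59).

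The sequence upstream of MOV10L1 is shown as that of the member with the largest difference. It comes from RefSeq on GRCh38.p14, plus strand, at chr22:50089756-50089878, and ends at the start of the gene in the deposited table. It holds 18 CpG in 123 bases and 0 of the MYB letters. The RefSeq start lies 127 bases inside the gene as the table lists it, and the whole 250 bases before that start hold 33 CpG and 1 match, which falls in the bases not shown.
MOV10L1: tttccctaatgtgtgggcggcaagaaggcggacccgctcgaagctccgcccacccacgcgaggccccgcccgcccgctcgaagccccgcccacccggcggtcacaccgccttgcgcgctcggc

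DDX4 (VASA), the RNA helicase that is used as a germ cell marker, had 7 counts in MAEL WT and 2 in MAEL KO. The span of DDX4 overlaps that of SLC38A9 on the other strand, which had 710 and 585 counts, although no exon base is shared. ASZ1, a scaffold on the mitochondrial surface, had 2 and 0 counts, and FKBP6, a chaperone partner in loading PIWI proteins, also had 2 and 0. For DDX4, ASZ1 and FKBP6 no fold change was computed, because neither library had 10 counts.

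The Tudor domain proteins were the largest group, with 9 of 11 above the floor and 5 at an FPKM of at least 1. TDRD12, which binds PIWI proteins and is needed for their secondary piRNAs, had 533 counts in MAEL WT and 438 in MAEL KO, and its log2 fold change of -0.07 had a counting interval from -0.26 to 0.11. TDRD7, a component of RNA granules in germ cells and the lens, had 326 and 270 counts, at -0.06 (-0.30 to 0.18). TDRD3, a somatic protein that works with a topoisomerase, had 205 and 229 counts, at 0.37 (0.09 to 0.65). The intervals of TDRD12 and TDRD7 held 0 and that of TDRD3 did not, but these calls depend on the scaling. With total counts, TDRD12 was at -0.35 (-0.53 to -0.16) and TDRD7 at -0.34 (-0.58 to -0.10), both below 0, and TDRD3 was at 0.09 with an interval that held 0.

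TDRKH, a mitochondrial anchor for PIWI proteins during trimming, had 594 counts in MAEL WT and 366 in MAEL KO, a log2 fold change of -0.49 (95% counting interval -0.68 to -0.30). Of its exon bases, 10.3% are shared with other genes, and OAZ3, which lies on the other strand, had 69 and 23 counts. RNF17, which holds back secondary piRNAs in meiotic cells, had 309 and 127 counts, at -1.07 (-1.38 to -0.77). Both lay below 0 beyond counting error, RNF17 past a threshold of 1 and TDRKH not.

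TDRD10 had 43 counts in MAEL WT and 8 in MAEL KO, or 0.727 and 0.156 FPKM, with a log2 fold change of -2.09 (95% counting interval -3.52 to -1.11). The interval reaches across the threshold of 2. TDRD6, a scaffold of the chromatoid body of spermatids, had 10 and 3 counts, and STK31, a Tudor protein with a kinase domain, had 8 and 11. The counting intervals of TDRD6 and STK31 held 0. TDRD9, a helicase with a Tudor domain, had 6 and 0 counts, while TDRD1 and TDRD5, which organise nuage, had 0 in both libraries.

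TDRD15, a Tudor gene on the list of 12 other piRNA factors, had 56 counts in MAEL WT and 5 in MAEL KO, a log2 fold change of -3.06 (95% counting interval -4.95 to -1.97). TCFL5 with 401 and 384 counts, KIF17 with 396 and 196, TDRD15 and GPAT2 with 2 and 4 were the 4 genes of that list above the floor. The list had 6 genes at 0 in both libraries, DNMT3L, MORC1, C19orf84, ADAD2, GTSF1L and SHCBP1L. Of its 3 genes with a fold change, 1 was lower by more than 2, and the median was -0.80.

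Of the processing enzymes, PLD6 and HENMT1 were read at an FPKM of at least 4 in both libraries. PLD6, or Zucchini, the nuclease on the mitochondrial surface that cuts piRNA precursors, had 234 counts in MAEL WT and 225 in MAEL KO, at a log2 fold change of 0.15 (95% counting interval -0.12 to 0.42). Of its exon bases 24.5% are shared with other genes, and MPRIP on the other strand had 1753 and 1697 counts, so the source of some PLD6 reads is uncertain. HENMT1 was at 0.80 (0.66 to 0.94), the highest fold change of any member. EXD1, a partner of TDRD12, had 12 and 4 counts, with an interval that held 0. PNLDC1, the trimmer of piRNA 3′ ends, had 2 and 0 counts.

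All 4 nuclear factors were above the floor in both libraries. MYBL1 had 268 counts in MAEL WT and 360 in MAEL KO, a log2 fold change of 0.63 (95% counting interval 0.40 to 0.87). TEX15, which is needed for transposon methylation with PIWIL4, had 151 and 219 counts, at 0.74 (0.44 to 1.06). SPOCD1, which links PIWIL4 to DNA methylation, had 90 and 29 counts, at -1.40 (-2.08 to -0.81). BTBD18, a nuclear factor that helps RNA polymerase through piRNA loci, had 6 and 4 counts. Of its exon bases 1.29% are shared with other genes, and SELENOH, which overlaps its span on the other strand, had 786 and 810 counts. The source of the few BTBD18 reads is therefore uncertain. MYBL1 and TEX15 were thus higher and SPOCD1 was lower in MAEL KO beyond counting error.

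On the list of silencing effectors, 13 of 14 genes were higher in MAEL KO, with a median log2 fold change of 0.61, and 1 passed 2. The list mixes genes that act downstream of PIWI proteins with genes of other silencing pathways, such as HUSH. Over all genes tested, 48% were higher in MAEL KO. UHRF1, which guides maintenance methylation, had 486 counts in MAEL WT and 1913 in MAEL KO, at 2.18, and DNMT3B, a de novo methyltransferase, had 683 and 1575, at 1.41. MORC2, an ATPase of the HUSH pathway, was the exception at -0.33. The methylosome proteins PRMT5, WDR77 and CLNS1A, of the complex that makes the arginine marks read by Tudor domains, were at 0.50, 0.73 and 0.56. The list of these with mitofusins and HSP90 had a median of 0.56 over 7 genes, from 0.23 for MFN2 to 0.88 for HSP90AA1.

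Some members, among them helicases, nucleases and MYBL1, were set beside relatives used in somatic cells. DDX3X, the ubiquitous relative of DDX4, was at 28.6 FPKM in MAEL WT and 50.4 FPKM in MAEL KO, whereas DDX4 was at 0.0836 and 0.0276. PARN, a relative of PNLDC1, was at 11.1 and 16.2 FPKM, and PNLDC1 at 0.0415 FPKM and at 0 counts. MYBL2, the cell cycle relative of MYBL1, had 941 and 3800 counts, at a log2 fold change of 2.22, and MYB had 4 and 24. In each of the 8 families compared, the summed FPKM of the relatives was higher than that of the germline members in both libraries. The families were chosen with earlier results known and do not cover all members. GTSF1, the highest member at 47.1 FPKM in MAEL WT and 34.6 FPKM in MAEL KO, was not compared, nor were TDRD9, TDRD12 and PLD6. The listed relatives SND1 and AKAP1 were set beside no member. The higher sum does not hold for every single relative, since MYB alone was at 0.0333 FPKM in MAEL WT and 0.230 FPKM in MAEL KO. MYBL1 was at 1.69 and 2.62 FPKM, and the sum of its relatives was 9.17 times as high in MAEL WT. In the MOV10L1 family the relative, MOV10, is itself a member. FKBP4 was at 41.2 FPKM in MAEL WT, and no fold is given against FKBP6 or PNLDC1, which were under the floor.

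**Figure D3:**
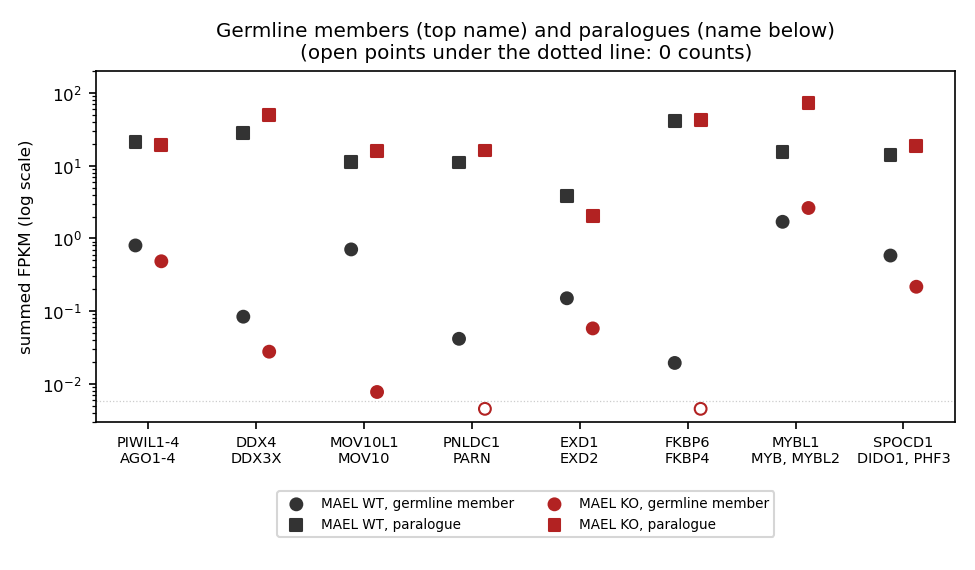
Summed FPKM on a log axis for members (circles) and their relatives (squares) in 8 families, in MAEL WT (black) and MAEL KO (red), with open circles under the dotted line for 0 counts. Squares lie above circles in every family and library, and MOV10 was 16.1 times as high as MOV10L1 in MAEL WT, while in MAEL KO MOV10L1 had 1 count, under the floor.

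Germ cell markers were read unevenly in the same libraries. Of 22 markers, 11 were above the floor and 8 were at 0 in both libraries, among them DAZL, STRA8, SPO11, PRM1, PRM2 and TNP1. The highest were HORMAD1, a protein of meiotic chromosome axes, with 219 and 99 counts, MEIOC, a partner in meiotic entry, with 407 and 243, and SOHLH2, a germline transcription factor, with 95 and 132. Of 6 markers with a fold change, 0 passed 2 in either direction and the median was -0.62. Log2 fold changes were -0.93 for HORMAD1, -0.88 for SYCP2, 0.68 for SOHLH2 and 1.63 for DMC1, a recombinase that had 9 and 26 counts.

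Several members start close to another gene. Of the 30, 5 (16.7%) start less than 200 bp from a protein-coding gene read in the other direction, against 5.04% of protein-coding genes. EXD1 shares such a strip of 95 bp with CHP1, a calcium-binding protein, which had 1756 counts in MAEL WT and 3107 in MAEL KO while EXD1 had 12 and 4. TDRD9 shares a strip of 192 bp with ATP5MPL, a subunit of ATP synthase, which had 1443 and 2096 counts while TDRD9 had 6 and 0. In these pairs the partner was well read and the member was not. FKBP6 and TRIM50, which lie 81 bp apart, were both at or under 2 counts.

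TDRD10 and SHE, an adapter protein, lie 105 bp apart, and both were lower in MAEL KO. SHE had 180 counts in MAEL WT and 13 in MAEL KO, a log2 fold change of -3.49 (95% counting interval -4.52 to -2.77), beside -2.09 for TDRD10. This was the one pair of the 5 in which both genes had at least 10 counts and differed in the same direction, since CHP1 was at 1.03 (0.95 to 1.12) and EXD1 at -1.20. Of the 8 members under the floor, 7 had an adjacent protein-coding gene above it, as did all 22 members above the floor, and 90% of all protein-coding genes had such a neighbour.

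**Figure D4:**
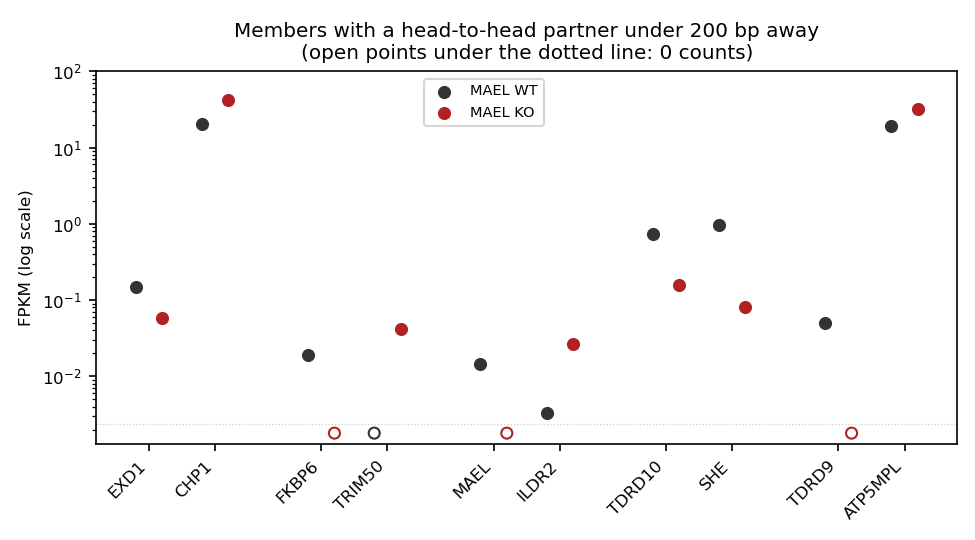
FPKM on a log axis for the 5 members that start less than 200 bp from an oppositely read gene, each beside its partner, in MAEL WT (black) and MAEL KO (red), with open points under the dotted line for 0 counts. CHP1 and ATP5MPL lie above 10 FPKM beside members under 0.2 FPKM, and TDRD10 and SHE are both lower in MAEL KO.

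The strips between these genes are shown for the pair that was lower together and for the pairs in which one side was read. They come from RefSeq on GRCh38.p14 and are written in the direction of the member, on the plus strand at chr1:154502114-154502218 for TDRD10, on the minus strand at chr15:41230758-41230838 for EXD1 and on the plus strand at chr14:103928270-103928455 for TDRD9. The last runs stop at the RefSeq starts of EXD1 and TDRD9, which lie inside the strips. They hold 16 CpG in 105 bases, 9 in 81 and 31 in 186, and 0 matches of the MYB letters, so no base is in capitals. The whole 250 bases before TDRD9 hold 1 match, which lies outside the strip shown.
TDRD10: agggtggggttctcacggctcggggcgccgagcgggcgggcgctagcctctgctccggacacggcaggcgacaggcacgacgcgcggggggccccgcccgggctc
EXD1: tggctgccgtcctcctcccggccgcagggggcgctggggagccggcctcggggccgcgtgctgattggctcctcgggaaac
TDRD9: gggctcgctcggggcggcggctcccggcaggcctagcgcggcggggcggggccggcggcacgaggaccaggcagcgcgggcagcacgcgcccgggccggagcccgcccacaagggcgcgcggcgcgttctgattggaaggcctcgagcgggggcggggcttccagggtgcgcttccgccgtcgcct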

How the data were processed

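Total RNA was sequenced on a HiSeq platform. The authors deposited read counts per gene, which are not normalized, and FPKM values. The submitters' processing notes name HISAT2 2.0.5, featureCounts 1.5.0-p3 and hg19, but the deposited genes carry GRCh38 coordinates, and for all 30 members the listed length equals the exon length in GENCODE 29. Whether counting used strand is not given in the sources used here. The deposited FPKM values correspond, from their ratio to the counts, to library sizes of 21872531 for MAEL WT and 18958459 for MAEL KO. Counts were scaled by TMM factors, 1.10044 and 0.908725, in edgeR 4.0.16. Intervals were computed in Python 3.11.15 with SciPy 1.17.1, and the steps were tested on simulated data. With 1 library per condition no p-value was computed. The members and lists were chosen with earlier results of these data known. TASOR is listed under its older name FAM208A. The rule for named genes took all members, overlapping genes with more than 3 counts, the somatic relatives and, of each other list, up to 3 genes with the highest FPKM and up to 2 at each end by fold change. Outside the rule, the neighbouring and head-to-head genes, GPAT2, CLNS1A, WDR77, PTPRC, VWF and the genes listed at 0 were chosen after their values were seen, as was the limit of 200 bp.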

Additional observations from a re-analysis of the deposited data

How the results depend on the processing

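With 1 library per condition, leaving out a library was not possible, and no result depends on a replicate. No paired analysis was possible because each condition had 1 library. The number of members detected, 22, was 10 at an FPKM of at least 1 and between 16 and 27 at the other limits. The number lower by more than 2 on the log2 scale, 2, was 1 with 5 added, 1 for genes with at least 100 counts, 6 at a threshold of 1 and 2 or 3 otherwise. No member was higher by more than the threshold under any setting. Over all genes tested, the counts of higher and lower genes were 387 and 1008, and they were 250 and 513 with 5 added, 1029 and 1773 without a filter, 185 and 283 at 100 counts, and 1827 and 2951 at a threshold of 1. With total counts they were 269 and 1309, and the median of all genes moved from -0.04 to -0.31. The median of members moved with it from -0.26 to -0.53, and that of silencing effectors from 0.61 to 0.34. That of the somatic small RNA machinery moved from 0.36 to 0.08. For the list of methylosome proteins, mitofusins and HSP90 it moved from 0.56 to 0.28. Restricted to the 12 members that reached 100 counts, the median was 0.05, on the other side of 0. The median of all genes at that limit was 0.07, so it also changed side. Of 90 values of 18 members under 5 settings, 82 stayed inside their counting interval. The other 8, MOV10, HENMT1, GTSF1, TDRD12, PLD6, TDRKH, MYBL1 and TDRD7, were outside it with total counts. There PLD6 was at -0.12, with an interval that held 0 under both scalings. TDRD12 was at -0.35 and TDRD7 at -0.34 with total counts, both with intervals now below 0. TDRD3 was at 0.09 with an interval that now held 0. The shifts with total counts come from leaving out the TMM factors. This moves all genes down by nearly the same amount, and by less at few counts. Which scaling is nearer the truth was not tested. A higher count limit leaves fewer genes, and what else lay behind the shift there was not tested. Members under 10 counts are limited by depth, and a difference there was not detectable.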
